A study of Gossypium hirsutum with 6 samples.

Results

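The genes described here are those for alternative oxidase (AOX1), manganese superoxide dismutase (Mn-SOD), glutathione S-transferase (GST) and tocopherol cyclase (TC) in leaves of upland cotton under drought. They were found by name: every probe set that the platform's gene table pairs with exactly 1 gene was kept if that gene's older RefSeq names include AOX1, Mn-SOD, GST or TC. This gave 5 genes of 520, with 8 probe sets of the 697 that have 1 gene. AOX1 (LOC107939301) and TC (LOC107906956) have 1 probe set each, Mn-SOD (LOC107897935) has 2, and of the 2 genes named GST, LOC107889738 has 3 and LOC107948407 has 1. The set was also chosen by measured values, the drought minus control differences of these same arrays, which were known when it was drawn up. Those differences are therefore given as a description, without a test.

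The leaves came from Gossypium hirsutum, cultivar Bikaneri Nerma, grown in open field plots, 6 per arm. In the drought arm, irrigation stopped at peak flowering and leaves were taken 18 to 19 days later, at a soil moisture of 19.5%, which was 50% of that of the control plots, and the control arm kept its irrigation. RNA of 3 drought and 3 control samples was hybridised to 1 Affymetrix cotton array each. The arrays of an arm are labelled as biological replicates without their plots, so every spread below is that between these samples.

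In plants, the mitochondrial electron transport chain can leak electrons to oxygen and form superoxide. Alternative oxidase is an enzyme of the inner mitochondrial membrane that passes electrons from ubiquinol to oxygen without pumping protons, which keeps the chain from becoming over-reduced. Mn-SOD turns mitochondrial superoxide into hydrogen peroxide, which catalases and ascorbate peroxidases remove. Glutathione S-transferases join glutathione to reactive compounds, and tocopherol cyclase makes the ring of tocopherols, the lipid antioxidants of plastid membranes.

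The values are log2 intensities made by RMA, a method that corrects, scales and summarises probe signals, and each probe set was then centred so that its median over the 6 arrays is 0. A value of 1 therefore means 2-fold more signal than that probe set's own median. The centring removed the absolute level, so neither levels of different genes nor the presence of leaf markers can be read from these data. Over the 24029 tested probe sets the median difference between drought and control was 0.12 log2 units, and the hybridisation spike-ins, which are added in fixed amounts, had array medians higher in drought by 0.247. Differences of that order in the text below have to be read beside these offsets.

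Among the 8 probe sets, that of AOX1 was far higher in drought leaves, TC was about 1 log2 unit higher, 1 of the 2 GST genes was lower by 2.14 log2 units, and Mn-SOD and the other GST gene stayed within 0.25 log2 units of no difference. In 3 probe sets (AOX1, TC and 1 of Mn-SOD) every drought array was higher than any control array, in 2 (GST LOC107948407 and the other of Mn-SOD) every one was lower, and in the 3 of GST LOC107889738 the groups overlapped. Over all tested probe sets, 40.1% lay wholly above, 22.7% wholly below, and together 62.8% did not overlap. At least 2-fold differences were found for 1 member probe set in each direction, where 6.63% of all tested probe sets were higher and 8.63% lower by that much, 15.3% in all. The median difference over the 8 probe sets was 0.10 log2 units, beside 0.12 over all tested probe sets. In these bulk leaf samples fewer cells of a type and less RNA per cell cannot be told apart.

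**Figure D1:**
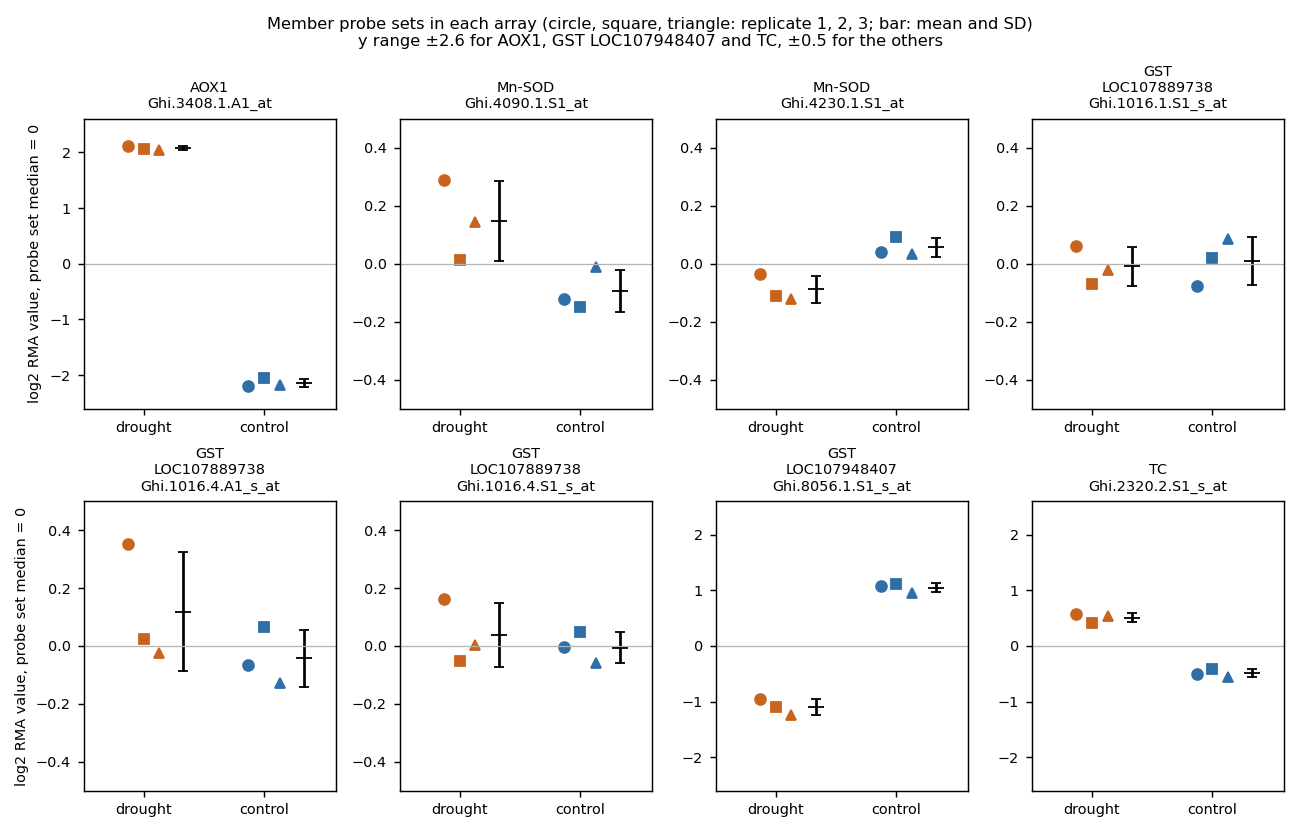
Each panel plots 1 probe set's log2 RMA values (probe set median 0) in the 3 drought arrays (orange, left) and the 3 control arrays (blue, right), with the mean and SD as a black bar; panels use a range of 2.6 or 0.5 log2 units either side of 0. AOX1 shows 2 tight groups 4.10 log2 units apart at their closest, whereas the 3 probe sets of GST LOC107889738 overlap between the groups.

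For AOX1, the alternative oxidase, probe set Ghi.3408.1.A1_at gave 2.12, 2.06 and 2.05 in drought replicates 1, 2 and 3, against -2.19, -2.05 and -2.17 in control replicates 1, 2 and 3. The arrays of each group lay close together, with means of 2.08 ± 0.03 in drought and -2.14 ± 0.08 in control (SD, n = 3 each), and the groups did not overlap. The difference was 4.22 log2 units (SE 0.07), or 18.6-fold. Across the 9 pairs of a drought and a control array it ran from 4.10 to 4.31, so no single array carries it. Only 25 of the 24029 tested probe sets had a larger increase, and 1.02% had a larger difference in either direction. The residual SD of AOX1, 0.0594 log2 units, was also small: 14.2% of tested probe sets had a smaller one, and their median was 0.111.

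The array holds a second probe set with the same cluster number, Ghi.3408.2.A1_x_at, for which the gene table used here gives no gene. Probe sets that share this number were designed from one cluster of related expressed sequences, and the suffix _x_at marks probes that may also bind other transcripts. It gave -0.04, 0.03 and 0.0034 in drought replicates 1, 2 and 3, against 0.12, -0.0034 and -0.11 in control replicates 1, 2 and 3. These groups overlapped, and the difference was -0.0051 log2 units (SE 0.08), with a limma adjusted p of 0.962. The AOX1 difference therefore rests on 1 probe set. Both probe sets are of antisense design, so which strand they measured is not known.

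For Mn-SOD, the mitochondrial superoxide dismutase, the 2 probe sets differed in sign. Ghi.4090.1.S1_at gave 0.29, 0.01 and 0.14 in drought replicates 1, 2 and 3, against -0.12, -0.15 and -0.01 in control replicates 1, 2 and 3. The drought arrays lay above the control arrays, but drought replicate 2 and control replicate 3 were only 0.02 log2 units apart. The difference was 0.24 log2 units (SE 0.09, 1.18-fold), and 0.17 to 0.31 with 1 array left out.

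Ghi.4230.1.S1_at of the same gene gave -0.03, -0.11 and -0.12 in drought replicates 1, 2 and 3, against 0.04, 0.09 and 0.03 in control replicates 1, 2 and 3. Here the drought arrays lay below the control arrays, with a difference of -0.15 log2 units (SE 0.07, 1.11-fold). The 2 probe sets belong to different sequence clusters of the array.

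Cluster 4090 holds 3 more probe sets that have no gene in the table used here. Ghi.4090.2.S1_s_at, of sense design, differed by 0.13 log2 units (SE 0.08, limma adjusted p = 0.191). Ghi.4090.3.A1_at and Ghi.4090.4.A1_x_at, of antisense design, differed by -0.24 (SE 0.09, limma adjusted p = 0.0399) and -0.19 (SE 0.08, limma adjusted p = 0.0931). Of these 3, only Ghi.4090.3.A1_at passed the threshold, where 55.7% of all tested probe sets did, 20.4% as lower. Ghi.4090.2.S1_s_at lay below the hybridisation spike-in offset of 0.247 log2 units, and the antisense probe sets, with negative differences, lay further below it. The part of that offset in these differences was not tested.

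**Figure D2:**
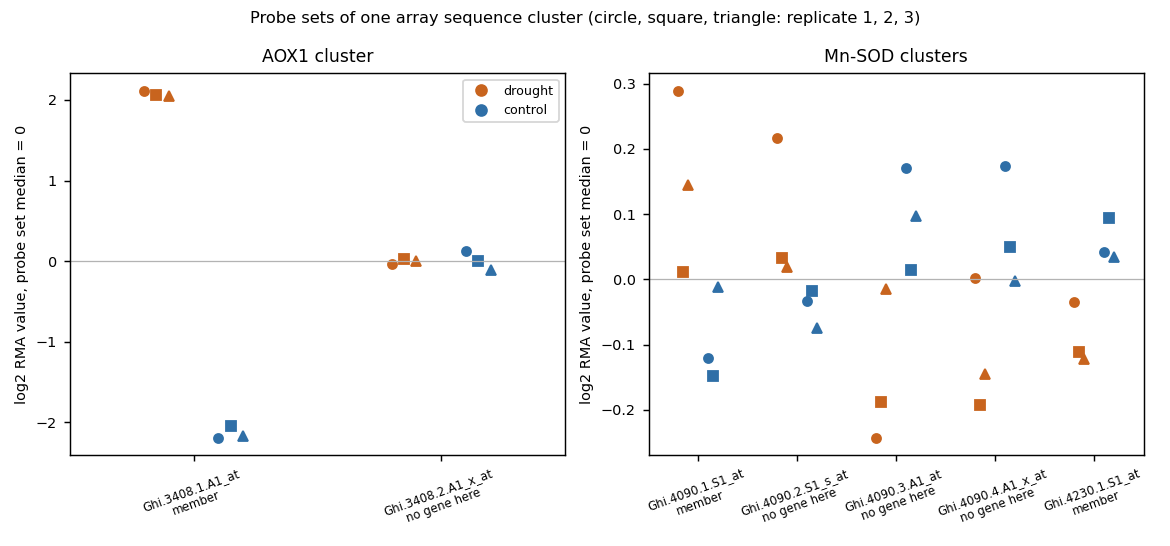
Log2 RMA values (probe set median 0) of the probe sets that share an array sequence cluster with AOX1 (left) or carry or share a cluster with Mn-SOD (right), with drought arrays in orange, left of control arrays in blue. AOX1's own probe set separates the groups by over 4 log2 units while Ghi.3408.2.A1_x_at reaches at most 0.12, and the 5 probe sets on the right reach at most 0.29.

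A list of other antioxidant enzymes found by name held 6 genes with 1 probe set each: the superoxide dismutases FeSOD, an iron enzyme, and CSD2a, a copper and zinc enzyme, the ascorbate peroxidases sAPX and gAPX, the catalase CAT2, and DHAR1, a dehydroascorbate reductase that regenerates ascorbate with glutathione. In drought leaves 4 of the 6 rose and 2 fell in limma, adjusted over all tested probe sets, where 35.3% of all tested probe sets were called higher and 20.4% lower, 55.7% in all. Their median difference was 0.35 log2 units, beside 0.12 over all tested probe sets. FeSOD, sAPX and gAPX are in the list only if a leading letter or metal is allowed, which the list as set down does not mention. Without them, 1 gene rose and 2 fell. When the hybridisation spike-ins set the scale of each array, the 2 decreases were still called and none of the 4 increases was. Reporter probe sets, which have no cotton target, reached absolute differences of up to 0.51 log2 units, and 9 of 52 (17.3%) passed the same limma threshold.

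Among the 3 classes of superoxide dismutase, FeSOD rose, CSD2a fell and the probe sets of Mn-SOD differed in sign. Of the listed genes, all but CAT2 have a probe set with the suffix _s_at. It marks probes shared by several transcripts, so these values may include related transcripts. FeSOD gave 0.33, 0.29 and 0.23 in drought replicates 1, 2 and 3, against -0.23, -0.25 and -0.25 in control replicates 1, 2 and 3, and rose by 0.53 log2 units (SE 0.07, limma adjusted p = 0.000183). CSD2a gave -0.31, -0.41 and -0.41 in drought, against 0.40, 0.37 and 0.31 in control, and fell by 0.74 log2 units (SE 0.07, limma adjusted p = 2.96e-05). In both, the groups did not overlap. Mn-SOD lay between them on both of its probe sets; whether the responses of the 3 classes differ from one another was not tested.

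Among enzymes that remove hydrogen peroxide, sAPX rose by 0.46 log2 units (SE 0.07, limma adjusted p = 0.000611) and CAT2 by 0.44 (SE 0.07, limma adjusted p = 0.000561). The increase of gAPX was smaller, at 0.26 log2 units (SE 0.07, limma adjusted p = 0.0138), and its adjusted p was 0.0507 without drought replicate 3 and 0.0503 without control replicate 3. DHAR1 gave -0.82, -1.09 and -1.0045 in drought replicates 1, 2 and 3, against 0.85, 0.86 and 0.82 in control replicates 1, 2 and 3. It fell by 1.81 log2 units (SE 0.09, 3.52-fold, limma adjusted p = 2.99e-07), the largest difference among the 6. As deposited, the signals for the 3 enzymes acting directly on hydrogen peroxide were thus higher in drought, by at most 1.38-fold. That for the ascorbate-regenerating enzyme was lower. When the hybridisation spike-ins set the scale of each array, none of these 3 increases was called, and the decrease of DHAR1 still was. The gAPX increase was close in size to the spike-in offset of 0.247 log2 units.

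**Figure D3:**
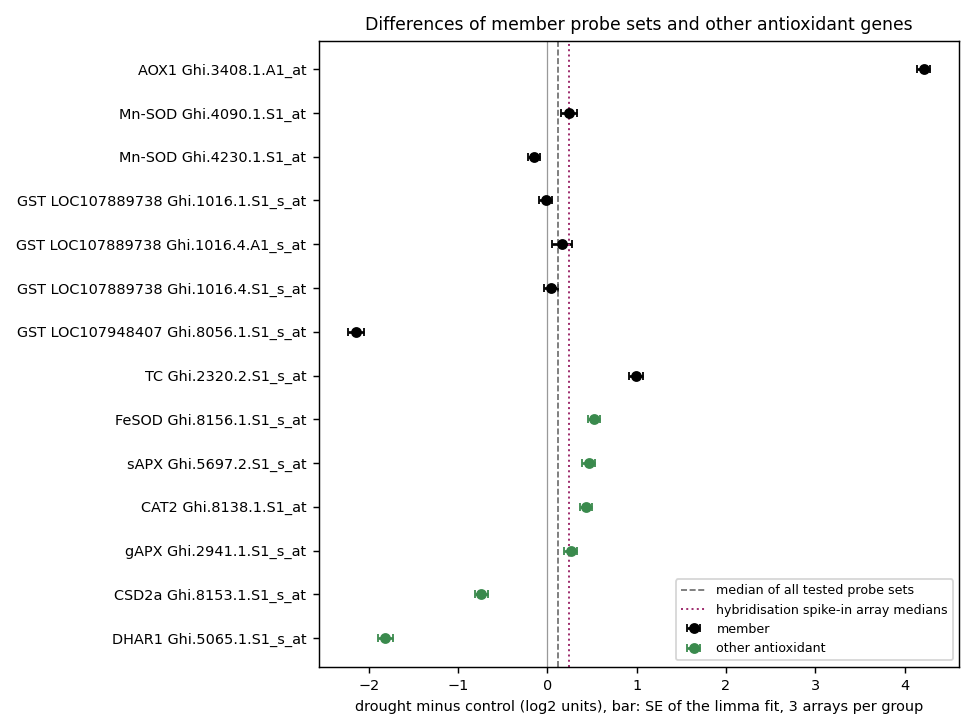
Drought minus control differences in log2 units with the SE of the limma fit (3 arrays per group), for the 8 member probe sets (black) and the 6 other antioxidant genes (green); dashed and dotted lines mark the median of all tested probe sets (0.12) and the hybridisation spike-in offset (0.247). AOX1 at 4.22 and GST LOC107948407 at -2.14 are the extremes. The higher Mn-SOD probe set at 0.24 and gAPX at 0.26 lie near the 2 lines. The probe sets of GST LOC107889738 run from -0.02 to 0.16, and the lower Mn-SOD probe set, at -0.15, lies below both lines.

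The 2 genes named GST gave unlike values. For GST LOC107948407, probe set Ghi.8056.1.S1_s_at gave -0.95, -1.10 and -1.23 in drought replicates 1, 2 and 3, against 1.07, 1.11 and 0.95 in control replicates 1, 2 and 3. The groups were 1.91 log2 units apart at their closest, with means of -1.10 ± 0.14 in drought and 1.05 ± 0.08 in control (SD, n = 3 each). The difference was -2.14 log2 units (SE 0.09), 4.41-fold lower in drought, and 976 of the tested probe sets had a larger decrease. The suffix _s_at marks probes shared by several transcripts, so the value may include other GST transcripts.

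Markers of cotton fibre also differed between these arrays. Of 4 fibre genes, Ghfe1, E6 and H6L fell and Fb2 rose, and their array medians ran from -1.94 to -1.60 in drought and from 1.65 to 1.72 in control. Of 5 flower MADS-box genes 2 fell, MADS-1 (-4.21 log2 units) and SEPALLATA3 (-1.56), and 3 did not pass. None of 3 seed storage genes passed. Over all tested probe sets, 35.3% were called higher and 20.4% lower. The part of other tissues in the GST and DHAR1 values was not tested.

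For GST LOC107889738, all 3 probe sets are from cluster 1016 and carry the shared-probe suffix. Ghi.1016.1.S1_s_at gave 0.06, -0.07 and -0.02 in drought replicates 1, 2 and 3, against -0.08, 0.02 and 0.09 in control replicates 1, 2 and 3, a difference of -0.02 log2 units (SE 0.08). Ghi.1016.4.S1_s_at gave 0.16, -0.05 and 0.0050 in drought, against -0.0050, 0.05 and -0.06 in control, a difference of 0.04 (SE 0.08). Ghi.1016.4.A1_s_at, of antisense design, gave 0.35, 0.02 and -0.02 in drought, against -0.06, 0.06 and -0.13 in control, a difference of 0.16 (SE 0.11). The groups overlapped in all 3, and drought replicate 1 was the highest drought array in each. Without drought replicate 1 the last difference was 0.04, and that of Ghi.1016.4.S1_s_at was -0.02. Across the 3 probe sets the differences spanned 0.18 log2 units. The overlap held as deposited but not on every scale: when the hybridisation spike-ins set the scale, Ghi.1016.1.S1_s_at (-0.27) and Ghi.1016.4.S1_s_at (-0.20) had all drought arrays below the control arrays.

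For TC, tocopherol cyclase, probe set Ghi.2320.2.S1_s_at gave 0.57, 0.41 and 0.54 in drought replicates 1, 2 and 3, against -0.50, -0.41 and -0.56 in control replicates 1, 2 and 3. All drought arrays were higher than all control arrays, by at least 0.83 log2 units. The difference was 1.00 log2 units (SE 0.08), or 1.99-fold, and ranged from 0.96 to 1.04 with 1 array left out. Of all tested probe sets 1604 had a larger increase, which places TC well below AOX1 in size. It is the only probe set numbered in its cluster among those tested, and its probes may bind several transcripts.

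In order of their differences, the member probe sets fell into 4 steps. AOX1 was 3.22 log2 units above TC, TC was 0.75 above the higher Mn-SOD probe set, and the lower Mn-SOD probe set was 2.00 above GST LOC107948407. Between them, the 2 probe sets of Mn-SOD and the 3 of GST LOC107889738 stood next to one another with gaps of 0.06 to 0.13 log2 units, beside SEs of 0.07 to 0.11 for each. These are distances between differences, not between levels.

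The named genes with the most similar values were sought by the root mean square difference over the 6 arrays, among 321 to 323 probe sets of other genes with an older name. Since both groups enter this measure, it mostly ranks genes by the size of their drought minus control difference. Nearest to AOX1 was Lea5-D, a late embryogenesis abundant protein gene, at 0.0740 log2 units, with a difference of 4.29 between the groups. The next, Pat1 and the NAC transcription factor gene NAC4, were much farther away at 0.631 and 0.694. Nearest to TC were Lea14-A, another LEA gene (0.0322), CBF15 (0.0616) and PAP10 (0.0757). Nearest to GST LOC107948407 were MAT, also named SAMS (0.0818), the expansin gene EXPA4 (0.0906) and the alpha-tubulin gene TubA2 (0.0946), with differences of -2.17, -2.06 and -2.20 log2 units.

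For the probe sets with small differences the nearest genes were equally flat. Mn-SOD Ghi.4090.1.S1_at was nearest to WRKY15 (0.0321), Mat5-D (0.0444) and cva69.24 (0.0618), and Ghi.4230.1.S1_at to psmB1 (0.0347), RHM3 (0.0415) and GRPL1 (0.0503). GST LOC107889738 was nearest to CLP (0.0385), VATE (0.0455) and Pel (0.0494) on Ghi.1016.1.S1_s_at. On Ghi.1016.4.S1_s_at it was nearest to GHTTG1 (0.0488), 14-3-3L (0.0512) and PTAC (0.0550), and on Ghi.1016.4.A1_s_at to LegA (0.0636), CBL1 (0.0816) and COL5-D (0.0817). The largest difference between the groups among these genes was 0.26 log2 units, for WRKY15.

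Under the 5 scalings of the arrays, 3 of the 5 probe sets with small differences changed sign, while Mn-SOD Ghi.4230.1.S1_at and GST Ghi.1016.1.S1_s_at stayed negative and AOX1, TC and GST LOC107948407 kept their signs. Measured from the median of all tested probe sets, AOX1 was higher by 4.10 log2 units, TC by 0.88 and Mn-SOD Ghi.4090.1.S1_at by 0.12, and GST LOC107948407 and Mn-SOD Ghi.4230.1.S1_at were at -2.26 and -0.27. When the hybridisation spike-ins set the scale of each array, AOX1 gave 3.97, TC 0.75, GST LOC107948407 -2.39, and the Mn-SOD probe sets -0.0049 and -0.39. Quantile normalization gave 5.39 for AOX1, or 41.8-fold in place of 18.6-fold, and -1.75 for GST LOC107948407, on columns that the centring had made near mirror images of each other. All 3 of AOX1, TC and GST LOC107948407 kept drought and control arrays apart under the 5 scalings shown.

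**Figure D4:**
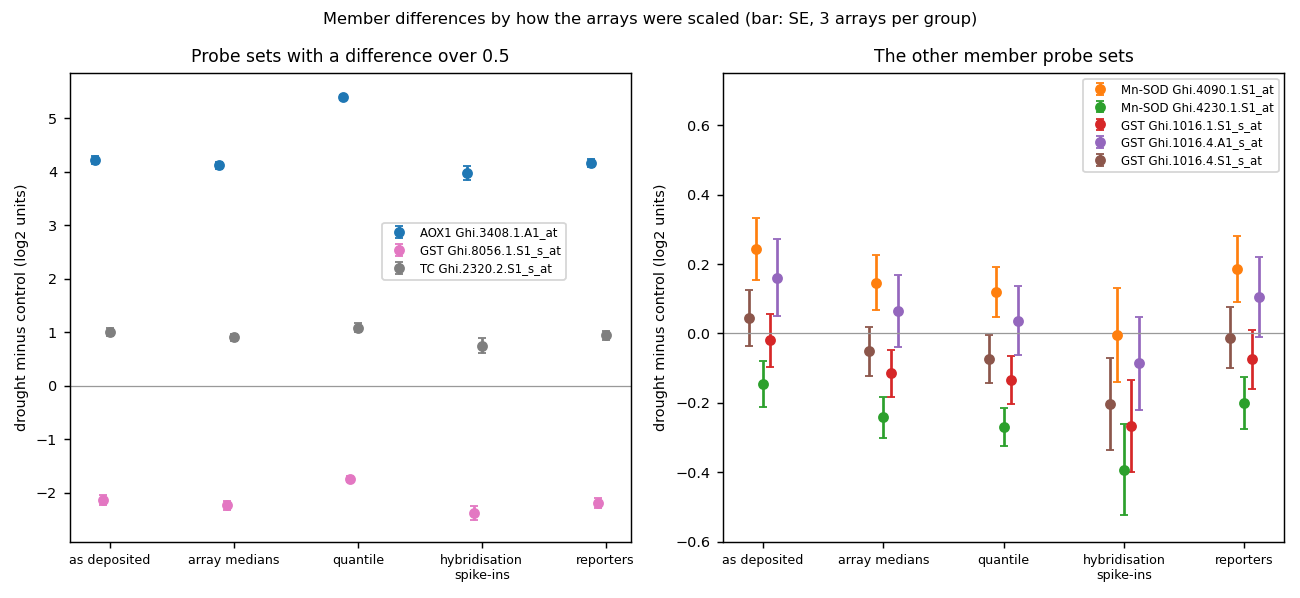
Drought minus control differences (log2 units, bar SE, 3 arrays per group) of the member probe sets under 5 scalings of the arrays: as deposited, centred on array medians, quantile normalized, and centred on the hybridisation spike-ins or on reporters. AOX1 stays between 3.97 and 5.39, TC between 0.75 and 1.09 and GST LOC107948407 between -2.39 and -1.75, while 3 of the 5 probe sets on the right change sign with the scaling.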

How the data were processed

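Leaf RNA was measured on 6 Affymetrix cotton arrays, 3 drought and 3 control. The deposited log2 values were made with RMA, per the submitters' processing notes; no version is named. The log2 scale and the direction (higher for more signal) are taken from RMA and the range of the values, not stated in the table. In the deposited table the median of each probe set over the 6 arrays is 0 (largest absolute median 5e-07), so how far each lies above background cannot be seen. Arrays of different groups correlated at -0.945 to -0.935 and arrays of a group at 0.913 to 0.944, which reflects the centring and the group difference together; all ratios are taken as running the same way. Column medians over tested probe sets were 0.0817, 0.0294 and 0.0459 in drought and -0.0472, -0.0459 and -0.0367 in control replicates 1, 2 and 3.

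Of 24132 probe sets, 103 Affymetrix controls were left out and 24029, with 52 reporters on sequences foreign to cotton, were tested. The gene table pairs 697 with 1 gene, 46 with several and leaves 23286 unnamed. The RefSeq table of assembly Gossypium_hirsutum_v2.1 was used for names only, and 324 of the 697 have an older name in it. lmFit and eBayes of limma 3.58.1 (R 4.3.3) gave every difference, SE and two-sided p, adjusted by Benjamini-Hochberg over all tested probe sets, with a threshold of 0.05, and was tested on simulated data. The labels do not say whether same-numbered arrays of the 2 groups are paired, so the main fit did not pair them.

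Members and lists were chosen with earlier results of these data known. Named are all members, all genes of the antioxidant name list, read with a leading letter or metal allowed, and the 3 nearest named genes per member probe set. The list as set down mentions no such prefix. Tissue markers are the fibre, flower, seed and leaf names fixed in the design, with 1 probe set per gene (sense design first); the 1 leaf gene, RCA1, rose by 0.60 log2 units.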

Additional observations from a re-analysis of the deposited data

Results flagged for a closer look

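Some classes of control probe sets, which measure no leaf transcript, differed between the groups. The array medians of the 27 hybridisation spike-in probe sets were higher in drought by 0.247 log2 units, and those of the 42 poly-A spike-in probe sets by 0.224. In both classes the lowest drought array was still higher than the highest control array. For the hybridisation spike-ins these arrays were close, at 0.0116 in drought replicate 3 and -0.0123 in control replicate 2. Their drought arrays reached up to 0.245, so they also differed among themselves. Offsets were smaller for the 17 tag probe sets (0.048), whose array medians overlapped between the groups, and for the 52 reporter probe sets (0.0557). The part of such an offset in the small differences of Mn-SOD, GST LOC107889738 and gAPX was not tested.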

How the results depend on the processing

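The count of called probe sets was 13380 as deposited and stayed between 11244 and 13297 under the other scalings, the replicate block and robust variances, and between 11878 and 13092 with 1 array left out. The share of calls that were higher was 63.4% as deposited, 53.1% with arrays centred on their median, 50.9% after quantile normalization, 35.5% with spike-in centring and 57.7% with reporter centring, and the median of all tested probe sets moved from 0.12 to -0.13 with spike-in centring. The median over the 8 member probe sets, 0.102, turned to -0.0183 after quantile normalization and to -0.145 with spike-in centring; leaving out 1 array gave 0.0125 to 0.148. With spike-in centring Mn-SOD Ghi.4090.1.S1_at turned to -0.00492 and GST Ghi.1016.4.A1_s_at to -0.0863. GST Ghi.1016.4.S1_s_at turned to -0.0517 with median centring, -0.0739 after quantile normalization, -0.203 with spike-in centring and -0.0118 with reporter centring. It ran from -0.0178 (without drought replicate 1) to 0.0889 with 1 array left out. GST Ghi.1016.1.S1_s_at ran from -0.0633 to 0.0192 with 1 array left out, positive without drought replicate 2 (0.0105) or control replicate 3 (0.0192). No cause was tested for these. Member probe sets whose groups did not overlap numbered 5 as deposited (3 above, 2 below) and 6 with spike-in centring (2 above, 4 below). Other scalings gave 4 (2 above), and leaving out 1 array 5 to 6. Shares of all tested probe sets were counted only as deposited. Of the 6 other antioxidant genes, 2 were called with spike-in centring, 0 of them higher: sAPX (0.22), CAT2 (0.19), FeSOD (0.28) and gAPX (0.01) no longer passed, with limma adjusted p-values of 0.182, 0.239, 0.0743 and 0.939, and limma called 3989 of all tested probe sets higher in that setting. gAPX also missed the threshold with median centring (limma adjusted p = 0.0907) and quantile normalization (limma adjusted p = 0.101). Over all settings adjusted p ran from 1.82e-21 to 3.38e-06 for DHAR1 and from 2.5e-09 to 0.000261 for CSD2a. Leaving out 1 array gave 5 to 6 called, 3 to 4 of them higher and 2 lower. A list read without prefixes, chosen after seeing the data, left 3 genes, all called, 1 of them higher. Same-numbered arrays correlated at 0.0326, 0.0453 and 0.0741 in their deviations from group means, each array most with its own number; the replicate block gave 13244 calls and changed no call among the 6 genes. Averaging probe sets per gene changes nothing for genes with 1, and a filter on dim probe sets was not run, since centred values hold no level. Precision is limited by 3 arrays per group.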
